A study of Arabidopsis thaliana with 6 samples.

Results

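In Arabidopsis stem RNA sequenced from wild-type and *hdt1* plants, the 2 libraries numbered 1 were compared with the 4 libraries numbered 2 and 4. The members are the genes that differed in the same direction in both genotypes. Genes were kept when they reached 1 FPKM (fragments mapped to a gene, scaled by transcript length and library size) in at least 2 of the 6 libraries, which left 18843 of 33690 features. Within each genotype, the value of library 1 minus the mean of libraries 2 and 4 was taken on the log2(FPKM + 1) scale and is called the split below. Of the kept genes, 13333 had the same sign in both genotypes, namely 8062 that were higher in library 1 and 5271 that were lower. A further 5471 had opposite signs and 39 had a difference of 0 in a genotype.

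The study examined how the histone deacetylase HDT1 acts in stem vascular development. The 3 wild-type libraries came from Columbia plants and the 3 *hdt1* libraries from plants with a T-DNA insertion in HDT1, all untreated main stems without flowers and leaves, labelled 35 days after flowering, a stage at which siliques had formed and stems were yellowing. The study kept 2 insertion lines, and the sources used here do not give which of them was sequenced or how many plants went into a library. A library is called by the number of its column, which is 1, 2 or 4 in each genotype, whereas the sample labels number the samples 1 to 3. Nothing in the labels says what sets library 1 apart, and the labels do not say that the libraries came from separate plantings, so p-values here reflect no more than the variation among these samples. The comparison was proposed with results of these data known, so a call is no independent test of the split. It sets the split against the residual spread of the fit, which holds both the spread between libraries 2 and 4 and any difference in split between the genotypes.

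Within a genotype, libraries 2 and 4 resembled each other closely, with a median absolute difference per gene of 0.0938 (log2) in the wild type and 0.0970 in *hdt1*, although they differed by more than counting error (median chi-square per gene of 2.30 and 2.50, against 0.455 from counting alone). Library 1 differed from libraries 2 and 4 of the same genotype by 0.462 to 0.481, which is more than the 0.409 to 0.421 between the genotypes within libraries 2 and 4. The libraries numbered 1 of the 2 genotypes differed by only 0.195, and 2.96% of genes differed by over 1 between them. The targeted gene HDT1 was at 53.3, 65.3 and 56.9 FPKM in libraries 1, 2 and 4 of the wild type, against 4.97, 19.8 and 20.5 FPKM in the same numbers of *hdt1*, so it was lower in every *hdt1* library, and its split was -0.19 in the wild type and -1.82 in *hdt1*. Of the other HD2-type deacetylases HDT2, HDT3 and HDT4, none had a called split. Recovered reads ranged from 41682210 to 46618771 per library. Of the stem markers, CESA4 (xylem cellulose synthase) was at 3.20 to 25.0 FPKM and SUC2 (phloem sucrose carrier) at 90.9 to 155 FPKM. CER6 (wax synthesis in the epidermis) was at 35.6 to 184 FPKM. The cambium gene WOX4 was under 1 FPKM in libraries 2 and 4 of the wild type and above it in the others. The petal and stamen genes AP3 and PI stayed under 1 FPKM in all libraries. SHP1 (fruit and valve margin) and LAP6 (pollen walls) were above it in all. The seed storage genes CRA1 and CRU3 were at 15.1 to 22.7 FPKM in libraries 2 and 4 of the wild type. In the other 4 libraries they were at 0.

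Several of the gene groups described here belong to well-known programmes of green tissue, although the 43 lists together hold only 582 of the kept genes. The circadian clock of plants is a set of transcription factors in which morning-phased and evening-phased members repress each other over the day. Plastids transcribe their own genome, and the photosystems and Rubisco are assembled from subunits encoded in both the plastid and the nucleus. Glucosinolates are sulfur-rich defence compounds of the cabbage family, and anthocyanins are flavonoid pigments that accumulate in light and under stress.

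In the fit over both genotypes, 4704 genes were called higher in library 1 (25.0% of those tested) and 2781 lower (14.8%), 39.7% in either direction, with an adjusted p of 0.05 as the limit. Each of these had the same sign in both genotypes, which this fit fixed in advance. Genes with opposite signs could not be called, because the difference in split between the genotypes enters the residual spread. The values of both libraries numbered 1 were above all 4 others for 6121 genes (32.5%) and below all 4 for 3723 (19.8%). Splits were often large. The smaller of the splits of the 2 genotypes exceeded 1, which is a doubling on this scale, for 960 genes, exceeded 2 for 181 and exceeded 4 for 23, whereas 549 genes had both splits under -1 and 85 under -2. Across the 18843 genes, the split of the wild type and that of *hdt1* correlated with a Pearson r of 0.542, which is a description across genes that share 6 libraries. The median split was 0.10 in the wild type and 0.13 in *hdt1*. With median-ratio scaling between libraries the calls were 3564 higher and 3580 lower, so the surplus of higher genes depended on the scale. Of 12 commonly used reference genes, 7 were called higher and 0 lower, with median splits of 0.40 in the wild type and 0.49 in *hdt1*. With library number as a replicate block, 2798 genes were called higher and 1556 lower. When libraries 2 and 4 of a genotype were averaged into 1 sample, 205 were called higher and 102 lower. That fit sets the split against the difference in split between the genotypes alone. Leaving out any 1 library gave 2728 to 7059 higher and 1528 to 5093 lower calls, with the fewest without library 2 of *hdt1* and over 1.5 times the higher calls only without library 1 of the wild type.

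**Figure D1:**
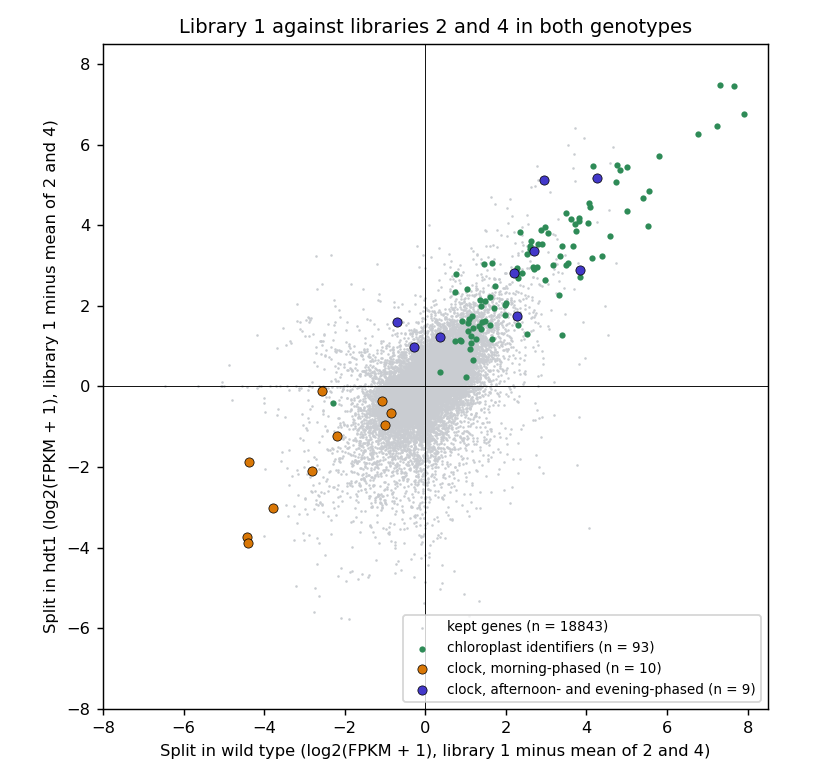
Split of each kept gene (library 1 minus the mean of libraries 2 and 4, log2(FPKM + 1)) in the wild type (x axis) and in *hdt1* (y axis), with chloroplast identifiers and the clock lists in colour. Morning-phased clock genes lie at the lower left and chloroplast identifiers at the upper right, and the grey cloud has a Pearson r of 0.542.

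The morning-phased clock genes were lower in library 1 of both genotypes. All 10 members of the list had a negative split in both and 9 were called, with median splits of -2.70 in the wild type and -1.56 in *hdt1* against 0.10 and 0.13 over all genes. Of all genes, 14.8% were called lower. Levels are given for library 1 of the wild type and of *hdt1*, and then for libraries 2 and 4 of the wild type followed by those of *hdt1*, and splits over both genotypes with the standard error of the fit to the 6 libraries. CCA1, a MYB transcription factor at the core of the morning loop, was at 12.4 and 15.3 FPKM in library 1 and 181, 181, 132 and 129 FPKM in the others, a split of -3.39 ± 0.18 (adjusted p = 0.000634). Its close relative LHY was at 1.299 and 1.38 FPKM in library 1 and 48.0, 48.3, 30.3 and 30.7 FPKM in the others, a split of -4.07 ± 0.17 (adjusted p = 0.000473). LNK2, a coactivator that works with RVE8, was at 20.4 and 24.1 FPKM in library 1 and 448, 454, 376 and 362 FPKM in the others, and its split of -4.14 ± 0.14 (adjusted p = 0.000314) gave it the largest decrease by the smaller split of the 2 genotypes among called genes with a mean of at least 10 FPKM. In each of these 3 genes the groups did not overlap, and the lowest of the 4 other values lay far above the higher value of library 1. Both values of library 1 lay below the other 4 for 19.8% of all genes. RVE4, a MYB-like activator of evening genes, was at 47.6 and 54.3 FPKM in library 1 and 231, 212, 124 and 133 FPKM in the others and had a split of -1.71 ± 0.23 (adjusted p = 0.0045). PRR7, a pseudo-response regulator that represses CCA1 and LHY, was at 52.8 and 54.3 FPKM in library 1 and 103, 110.0, 113 and 99.5 FPKM in the others, a split of -0.97 ± 0.10 (adjusted p = 0.00212). RVE2 was the member not called: its level was 5.21 and 8.55 FPKM in library 1 and 36.8, 35.02, 8.83 and 9.73 FPKM in the others, so that only the wild type showed a wide gap.

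The promoters of these genes share a motif that the rule did not use. The G-box CACGTG, searched on both strands from 250 bases before to 50 bases after the gene start in TAIR10.1, was present in 9 of the 10 morning-phased genes and in 1642 of the 18079 promoters of kept genes (9.08%). It was also present in 9.10% of the promoters of genes called higher and in 10.4% of those called lower, so that it did not mark the called genes in general. Below are the sites of 4 of the genes described above and of RVE8, with the motif in capitals, 5′ to 3′ on the strand of the gene.
CCA1 (chr2:19245388-19245413): gtgtatcagaCACGTGtcgacaaact
LHY (chr1:37936-37961): acaatatcacCACGTGtcgatctgcg
PRR7 (chr5:642216-642241): cccaccattaCACGTGtcagttcaaa
LNK2 (chr3:20179031-20179056): actcgtttggCACGTGaccatttcat
RVE8 (chr3:2946240-2946265): tacaagtctaCACGTGcttcaagctt
CCA1 and RVE8 lie on the plus strand and LHY, PRR7 and LNK2 on the minus strand. RVE8 itself was at 10.3 and 10.02 FPKM in library 1 and 82.4, 75.2, 46.3 and 46.9 FPKM in the others, a split of -2.47 ± 0.18 (adjusted p = 0.00104).

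The afternoon- and evening-phased clock genes moved the other way. Of 9 members, 7 were higher in library 1 of both genotypes and all 7 were called, with median splits of 2.28 in the wild type and 2.82 in *hdt1*. Of all genes, 25.0% were called higher. LUX, the DNA-binding member of the evening complex, was at 103 and 98.8 FPKM in library 1 and 5.57, 7.08, 12.2 and 12.9 FPKM in the others, a split of 3.36 ± 0.24 (adjusted p = 0.000999). ELF4, another member of that complex, was at 159.9 and 164 FPKM in library 1 and 21.4, 18.5, 3.87 and 3.61 FPKM in the others, a split of 4.03 ± 0.48 (adjusted p = 0.0034). FKF1, a blue-light receptor that controls flowering with GI, was at 84.1 and 63.2 FPKM in library 1 and 3.43, 3.39, 0.923 and 0.669 FPKM in the others, and its split was 4.72 ± 0.22 (adjusted p = 0.000516). In all 3 genes both values of library 1 stood above the other 4 without overlap, which held for 32.5% of all genes. TOC1, the evening repressor of CCA1 and LHY, was at 57.6 and 81.8 FPKM in library 1 and 44.3, 45.2, 34.8 and 34.0 FPKM in the others, and its split of 0.79 ± 0.20 (adjusted p = 0.0298), which was 0.36 in the wild type and 1.23 in *hdt1*, had an adjusted p of 0.0741 with the replicate block. ELF3 and BOA had opposite signs and were not called. ELF3 was at 26.7 and 25.5 FPKM in library 1 and 31.9, 33.4, 12.7 and 12.04 FPKM in the others, and BOA, a relative of LUX, was at 17.2 and 14.1 FPKM in library 1 and 29.4, 27.7, 4.76 and 3.38 FPKM in the others. The RNA-binding protein GRP7, whose transcript is a clock output, was the most abundant of all in both libraries numbered 1, at 8863 and 8173 FPKM in library 1 and 958, 869, 636 and 661 FPKM in the others, a split of 3.47 ± 0.14 (adjusted p = 0.00039).

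The shorter form of the evening element, AATATCT, was present in the promoters of 7 of the 9 evening-phased genes and in 5 of the 10 morning-phased ones, against 2149 of 18079 promoters of kept genes (11.9%). The 7 with the motif include BOA, which was not called, so they are not the same 7 genes as those called higher. It was in 14.4% of the promoters of genes called higher and in 10.6% of those called lower. A match shows only that the letters are there. Sites of 5 of the evening-phased genes are shown, with the motif in capitals in either orientation, AATATCT or AGATATT, 5′ to 3′ on the strand of the gene.
LUX (chr3:17182962-17182988): cggtttgaaaAGATATTtagaagatct
ELF4 (chr2:16734943-16734969): tctactcagaAGATATTtactataaat
FKF1 (chr1:25508390-25508416): aaaaaaaacaAATATCTttcacaaaat
PRR5 (chr5:8358717-8358743): gattttttctAGATATTttcttttctc
TOC1 (chr5:24674802-24674828): aaatatcatgAGATATTttctccaaga
LUX, FKF1 and TOC1 lie on the plus strand and ELF4 and PRR5 on the minus strand. PRR5, a pseudo-response regulator of the afternoon, was at 34.2 and 52.5 FPKM in library 1 and 3.86, 5.05, 4.86 and 3.59 FPKM in the others, a split of 3.03 ± 0.21 (adjusted p = 0.000991).

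**Figure D2:**
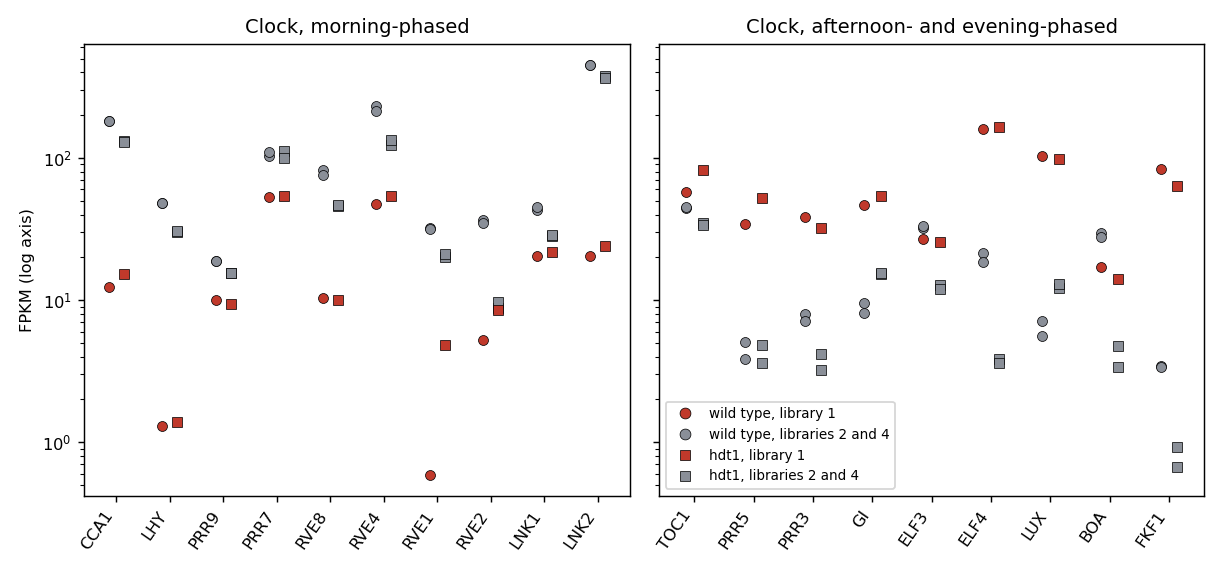
Level in FPKM (log axis) of 10 morning-phased and 9 afternoon- and evening-phased clock genes in each library, wild type as circles and *hdt1* as squares, library 1 in colour and libraries 2 and 4 in grey. Morning-phased genes have library 1 at the bottom of their column, and 7 of the 9 evening-phased genes have it at the top, the exceptions being ELF3 and BOA. Over all genes both values of library 1 were lowest for 19.8% and highest for 32.5%.

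Transcripts with chloroplast identifiers showed the largest splits of the whole table. They made up 1.48% of the summed FPKM in library 1 of the wild type and 1.47% in library 1 of *hdt1*, against 0.0253% to 0.0417% in the other 4 libraries. As a share of recovered reads the values were 0.308% and 0.339% against 0.00629% to 0.00987%. Of 133 such identifiers 93 were kept and 88 were called higher, beside 25.0% of all genes. Of the 93, 92 were higher in library 1 of both genotypes, with median splits of 2.61 in the wild type and 2.96 in *hdt1*. The exception was ATCG00060, at 0 and 0.921 FPKM in library 1 and 2.88, 5.14, 0.326 and 3.93 FPKM in the others. The files and the annotation used here give these identifiers no gene names.

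ATCG00220 alone took 6568 and 5844 FPKM in library 1 and was at 45.0, 36.2, 28.7 and 35.4 FPKM in the others, a split of 7.39 ± 0.14 (adjusted p = 0.000149). ATCG00480 was at 389 and 353 FPKM in library 1 and 0.924, 0.940, 0.958 and 1.101 FPKM in the others, a split of 7.55 ± 0.11 (adjusted p = 5.23e-05). ATCG00470 was at 648 and 590.4 FPKM in library 1 and 1.68, 1.73, 4.01 and 5.02 FPKM in the others and ATCG00020 at 491 and 831 FPKM in library 1 and 9.14, 6.79, 12.2 and 17.5 FPKM in the others. All 10 genes with the largest increase by the smaller split of the 2 genotypes were chloroplast identifiers, with values of 36.2 to 6568 FPKM in library 1 and of 0 to 45.0 FPKM in the other 4 libraries. Mitochondrial identifiers did not follow them. Of 54 kept, 5 were higher and 30 lower in library 1 of both genotypes, 2 and 10 of them called, with median splits of -0.10 in the wild type and -0.54 in *hdt1*. The shares over all genes were 25.0% called higher and 14.8% lower.

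**Figure D3:**
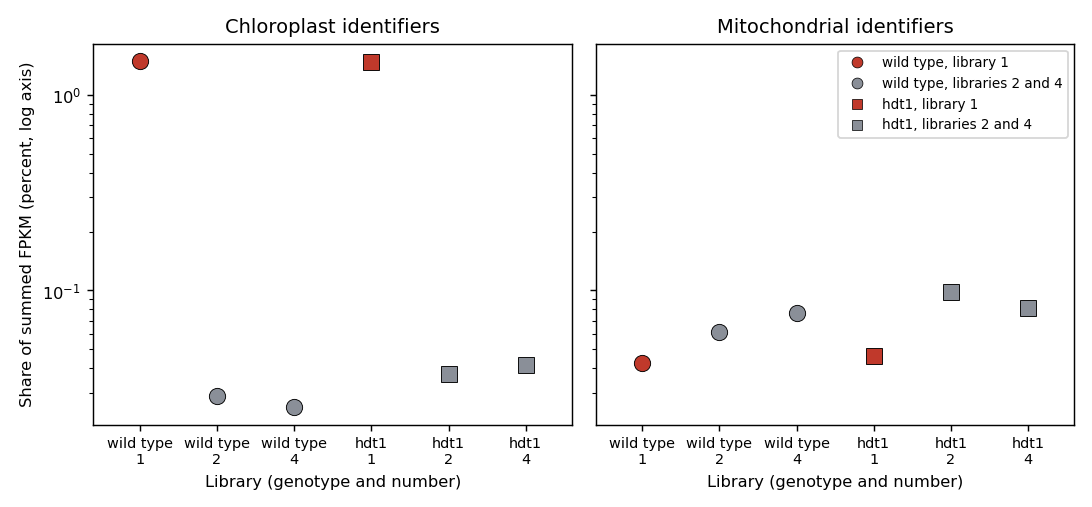
Share of summed FPKM (percent, log axis) carried by chloroplast identifiers and by mitochondrial identifiers in each of the 6 libraries. The chloroplast share is 1.48% and 1.47% in the libraries numbered 1 and at most 0.0417% in the other 4, and the mitochondrial share is 0.0425% and 0.0461% in the libraries numbered 1 and 0.0617% to 0.0977% in the other 4.

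Photosynthesis genes of the nucleus were higher in library 1 too, but by far less. Of 42 kept members, 38 were higher in both genotypes and 35 were called, and 0 were lower in both, with median splits of 0.96 in the wild type and 1.08 in *hdt1*. The share called higher over all genes was 25.0%. RBCS1A, the most abundant small subunit of Rubisco, was at 2290.2 and 2172 FPKM in library 1 and 1177, 1158, 903 and 959 FPKM in the others, a split of 1.097 ± 0.11 (adjusted p = 0.00242). Its paralog RBCS3B was at 745 and 832 FPKM in library 1 and 146, 146, 134 and 155 FPKM in the others, a split of 2.43 ± 0.11 (adjusted p = 0.000489). Paralogs with near-identical sequence may share reads, so the Rubisco and light-harvesting families are uncertain member by member. PSBR, a subunit of photosystem II, was at 5460.1 and 4181 FPKM in library 1 and 2419, 2367, 1860.5 and 1939.6 FPKM in the others, a split of 1.16 ± 0.11 (adjusted p = 0.00194). The 4 members with opposite signs were all antenna proteins of photosystem II, namely LHCB1.3, LHCB2.1, LHCB2.2 and LHCB4.2. LHCB1.3, the most abundant gene of the list, was at 5283 and 4452 FPKM in library 1 and 5240.1, 6085, 4103 and 3489 FPKM in the others and its 2 groups overlapped.

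The 16 kept genes of aliphatic glucosinolate synthesis were all called higher in library 1, with median splits of 2.57 in the wild type and 3.65 in *hdt1*. The share called higher over all genes was 25.0%. Side-chain elongation starts from methionine with BCAT4, an aminotransferase, which was at 580.4 and 639 FPKM in library 1 and 51.6, 45.7, 8.85 and 9.12 FPKM in the others, a split of 4.78 ± 0.53 (adjusted p = 0.0029). MAM1, the synthase of the elongation cycle, was at 698 and 789 FPKM in library 1 and 111, 99.0, 24.2 and 23.7 FPKM in the others, a split of 3.86 ± 0.49 (adjusted p = 0.0042). IMD1, the dehydrogenase of the same cycle, was at 253 and 342 FPKM in library 1 and 9.57, 9.64, 6.60 and 6.10 FPKM in the others, a split of 5.06 ± 0.22 (adjusted p = 0.000489). For each of these enzymes the groups were far apart, and the level in libraries 2 and 4 of *hdt1* lay below that of the wild type. Of the enzymes that build the core structure, CYP79F1 was at 374 and 457 FPKM in library 1 and 26.2, 29.1, 4.94 and 3.896 FPKM in the others, a split of 5.06 ± 0.59 (adjusted p = 0.00327). CYP83A1, which follows it, was at 834 and 925 FPKM in library 1 and 150.4, 157, 83.2 and 77.3 FPKM in the others, a split of 2.97 ± 0.25 (adjusted p = 0.00149). MYB28 and MYB29 are transcription factors that switch the pathway on. MYB29 was at 41.3 and 61.3 FPKM in library 1 and 4.09, 4.46, 3.36 and 2.79 FPKM in the others and MYB28 at 65.5 and 76.5 FPKM in library 1 and 41.1, 38.4, 29.2 and 27.7 FPKM in the others, with splits of 3.47 ± 0.23 (adjusted p = 0.000885) and 1.05 ± 0.17 (adjusted p = 0.00798). The side-chain gene AOP3 and the glutathione S-transferases GSTF11 and GSTU20, named because they rank among the 10 nuclear genes with the largest increase, also stood apart. GSTU20 was at 961 and 1074 FPKM in library 1 and 36.1, 37.5, 15.3 and 17.5 FPKM in the others, a split of 5.31 ± 0.29 (adjusted p = 0.000645).

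Genes of indole glucosinolates, which are made from tryptophan, gave no such picture. Of 10 kept, 4 were higher and 3 lower in both genotypes, 2 and 1 of them called, with median splits of 0.10 in the wild type and -0.03 in *hdt1*. The shares over all genes were 25.0% called higher and 14.8% lower. CYP83B1, the indole counterpart of CYP83A1, was at 366 and 540.3 FPKM in library 1 and 452, 467, 654 and 617 FPKM in the others, and its split of -0.28 ± 0.09 (adjusted p = 0.0627) was not called. MYB34, a regulator of the indole branch, was at 1.44 and 1.73 FPKM in library 1 and 2.21, 1.75, 25.4 and 23.0 FPKM in the others, so that libraries 2 and 4 of *hdt1* stood apart from the other 4.

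Sulfur assimilation, which feeds glucosinolate synthesis, rose with the aliphatic branch: all 10 kept genes were called higher in library 1, with median splits of 1.74 in the wild type and 2.04 in *hdt1*. APR1, a reductase of activated sulfate, was at 226 and 275 FPKM in library 1 and 28.9, 26.1, 42.4 and 41.4 FPKM in the others, a split of 2.84 ± 0.11 (adjusted p = 0.00039). APR3, of the same family, was at 163 and 127 FPKM in library 1 and 48.2, 48.4, 80.0 and 78.4 FPKM in the others, a split of 1.21 ± 0.24 (adjusted p = 0.0145). LSU2, a gene named for its response to low sulfur, was at 184 and 70.7 FPKM in library 1 and 12.7, 14.03, 12.9 and 11.8 FPKM in the others, a split of 3.06 ± 0.29 (adjusted p = 0.0019). Lists for other nutrients had calls in both directions. Of 14 kept nitrate genes 2 were called higher and 3 lower, of 10 phosphate starvation genes 3 and 1, and of 9 iron genes 3 and 1. Over all genes, 25.0% were called higher and 14.8% lower.

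All 12 kept genes of flavonoid and anthocyanin synthesis were higher in library 1 of both genotypes and 11 were called, with median splits of 1.44 in the wild type and 3.26 in *hdt1*. The share called higher over all genes was 25.0%. PAP1, a MYB transcription factor that drives anthocyanin production, was at 151 and 139 FPKM in library 1 and 6.79, 8.16, 2.73 and 3.07 FPKM in the others, a split of 4.67 ± 0.24 (adjusted p = 0.000621). PAP2, its relative, was at 89.2 and 48.7 FPKM in library 1 and 12.9, 11.1, 0.644 and 0.239 FPKM in the others, a split of 3.96 ± 0.52 (adjusted p = 0.00449). DFR, the reductase of the anthocyanin branch, was at 35.9 and 49.8 FPKM in library 1 and 12.1, 9.999, 0.883 and 1.01 FPKM in the others, a split of 3.17 ± 0.67 (adjusted p = 0.0173) that had an adjusted p of 0.0527 without library 2 of *hdt1* and of 0.0519 without library 4. GSTF12, needed to carry anthocyanins to the vacuole, was at 45.1 and 53.2 FPKM in library 1 and 14.6, 11.3, 1.36 and 1.303 FPKM in the others, a split of 3.14 ± 0.62 (adjusted p = 0.0136). Library 1 was similar in both genotypes in these 4 genes, with the lower of its values within 2 times of the higher, whereas libraries 2 and 4 were lower in *hdt1* than in the wild type. The split of all 12 genes differed between genotypes by the product term, which was called for 44.0% of all genes tested.

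**Figure D4:**
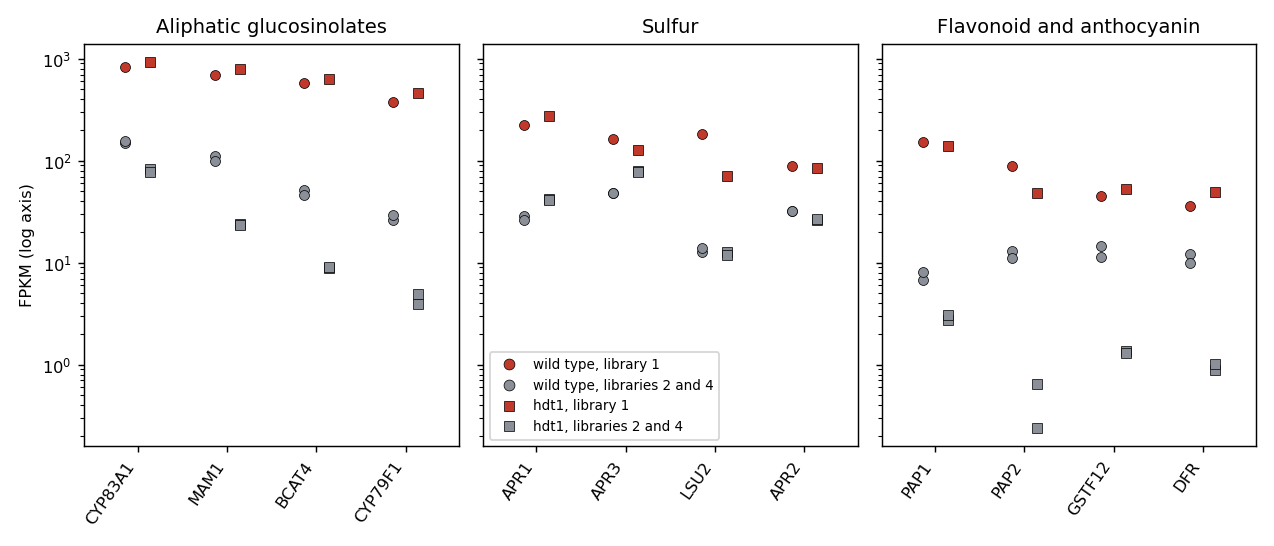
Level in FPKM (log axis) of the 4 most abundant kept genes of the lists for aliphatic glucosinolates, sulfur and flavonoids and anthocyanins in each library, wild type as circles and *hdt1* as squares, library 1 in colour and libraries 2 and 4 in grey. In all 12 genes both values of library 1 are the highest of the column, which held for 32.5% of all genes.

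The listed transcription factors of secondary walls were higher in library 1, and the wall enzymes differed between genotypes. All 16 kept transcription factors had a positive split in both genotypes and 12 were called, with median splits of 0.83 in the wild type and 1.06 in *hdt1*. Of all genes, 25.0% were called higher. NST1, a NAC master switch of fibre walls, was at 12.9 and 13.98 FPKM in library 1 and 1.67, 1.52, 5.31 and 5.25 FPKM in the others, a split of 1.84 ± 0.27 (adjusted p = 0.0061). KNAT7, a homeodomain protein of the network, was at 39.3 and 57.1 FPKM in library 1 and 27.2, 27.1, 33.1 and 31.9 FPKM in the others, a split of 0.65 ± 0.10 (adjusted p = 0.00697). MYB46, a direct target of NST1 and its relative SND1, was at 2.52 and 2.98 FPKM in library 1 and 2.55, 2.47, 2.77 and 2.71 FPKM in the others, a split of 0.05 ± 0.12 (adjusted p = 0.773), and was not called. Of 20 genes of secondary wall cellulose and xylan, by contrast, 6 were higher and 4 lower in both genotypes and 10 had opposite signs, with median splits of 0.98 in the wild type and -0.35 in *hdt1*. The 3 cellulose synthases of the secondary wall were called higher, although CESA4 had an adjusted p of 0.0854 with the replicate block. CESA8 was at 7.15 and 17.7 FPKM in library 1 and 1.702, 2.16, 9.12 and 7.72 FPKM in the others, a split of 1.24 ± 0.17 (adjusted p = 0.00472). IRX15, which acts in xylan synthesis, was at 14.4 and 20.8 FPKM in library 1 and 4.59, 3.48, 46.4 and 46.0 FPKM in the others, so that libraries 2 and 4 of the 2 genotypes lay on either side of library 1. Of 20 monolignol and lignin polymerization genes 9 were called higher and 1 lower, beside 25.0% and 14.8% of all genes.

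Other lists of stem tissue were mixed, beside the 25.0% of all genes called higher and the 14.8% called lower. Of 5 genes of tracheary element death 2 were higher and 2 lower in both genotypes, 0 and 1 of them called. Of 9 kept phloem genes 7 were higher in both genotypes and 4 were called. SWEET12, a sucrose exporter that loads the phloem, was at 221 and 373 FPKM in library 1 and 51.9, 55.3, 26.4 and 28.2 FPKM in the others, a split of 2.87 ± 0.38 (adjusted p = 0.00441). SUC2, the carrier that takes up that sucrose, was at 110.4 and 147 FPKM in library 1 and 90.9, 92.2, 155 and 154 FPKM in the others and had no called split. Of 15 cambium genes 9 were higher and 6 lower, 5 and 3 of them called. WOX4, which keeps cambium cells dividing, was at 7.20 and 9.41 FPKM in library 1 and 0.299, 0.183, 2.74 and 2.14 FPKM in the others, a split of 2.16 ± 0.28 (adjusted p = 0.00429). ATHB15, a class III homeodomain factor of vascular patterning, was at 43.3 and 36.9 FPKM in library 1 and 66.0, 65.6, 54.7 and 53.5 FPKM in the others, a split of -0.57 ± 0.08 (adjusted p = 0.00556). Of 19 kept genes of epidermis, cutin and wax 8 were called higher and 1 lower, with CER6 at 184 and 168 FPKM in library 1 and 70.1, 76.6, 37.8 and 35.6 FPKM in the others, a split of 1.74 ± 0.20 (adjusted p = 0.0032). In bulk stems, more cells of a type and more RNA of that type per cell cannot be told apart. Of the 13 genes of starch turnover 8 were higher and 7 called. PHS2, a cytosolic phosphorylase, was at 85.9 and 101 FPKM in library 1 and 13.1, 12.5, 9.597 and 8.90 FPKM in the others, a split of 2.98 ± 0.17 (adjusted p = 0.000666).

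Light- and shade-related genes were lower in library 1. Of the 10 kept, 8 were lower in both genotypes and all 8 were called, with median splits of -1.296 in the wild type and -0.72 in *hdt1*. PIF4, a phytochrome-interacting factor that promotes elongation, was at 32.6 and 28.4 FPKM in library 1 and 82.7, 80.9, 55.8 and 55.3 FPKM in the others, a split of -1.12 ± 0.11 (adjusted p = 0.00212). PIF5, its relative, was at 35.6 and 47.3 FPKM in library 1 and 88.4, 88.9, 70.8 and 71.1 FPKM in the others, a split of -0.93 ± 0.17 (adjusted p = 0.0114). ATHB2, a homeodomain gene induced by shade, was at 12.9 and 15.4 FPKM in library 1 and 38.5, 40.2, 29.1 and 34.5 FPKM in the others, a split of -1.27 ± 0.16 (adjusted p = 0.00385). Of 10 kept genes induced by energy deprivation 3 were called lower and 0 higher, beside 14.8% and 25.0% of all genes. Their median splits were -1.57 in the wild type and -0.09 in *hdt1*. The product term was called for 7 of them, beside 44.0% of all genes. SEN1, a gene of darkness and senescence, was at 14.8 and 17.5 FPKM in library 1 and 89.4, 82.4, 91.3 and 94.2 FPKM in the others, a split of -2.40 ± 0.09 (adjusted p = 0.000382). DIN10, a dark-induced gene, was at 47.0 and 132 FPKM in library 1 and 133, 135, 139.7 and 135 FPKM in the others, so that only library 1 of the wild type stood apart.

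Jasmonate genes had calls in both directions. Of 24 kept, 13 were lower and 5 higher in library 1 of both genotypes, 12 and 4 of them called, with median splits of -0.84 in the wild type and -1.15 in *hdt1*. Over all genes, 14.8% were called lower and 25.0% higher. OPR3, a reductase late in jasmonate synthesis, was at 222 and 422 FPKM in library 1 and 542, 536, 842 and 815 FPKM in the others, a split of -1.12 ± 0.11 (adjusted p = 0.00209). LOX4, a lipoxygenase at its start, was at 34.8 and 61.9 FPKM in library 1 and 239, 234, 375 and 377 FPKM in the others, a split of -2.65 ± 0.09 (adjusted p = 0.000294). JAZ1, a repressor that jasmonate both induces and removes, was at 241 and 307 FPKM in library 1 and 417, 389.8, 589.7 and 619 FPKM in the others, a split of -0.86 ± 0.10 (adjusted p = 0.00363). In these 3 genes both values of library 1 were below the other 4, which held for 19.8% of all genes. JAZ9 of the same family went the other way, at 409.5 and 1146 FPKM in library 1 and 336, 313, 357 and 359 FPKM in the others, a split of 1.01 ± 0.30 (adjusted p = 0.0469) that had an adjusted p of 0.0982 with the replicate block and of 0.0637 with median-ratio scaling. VSP2, a storage protein and common marker of jasmonate, was at 727 and 828 FPKM in library 1 and 27.7, 25.3, 95.7 and 99.1 FPKM in the others, a split of 3.901 ± 0.37 (adjusted p = 0.00191).

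Among the 10 genes with the largest decrease, 3 shared an annotation as Brix domain proteins of ribosomal RNA processing. This group was noticed after the values had been seen. AT1G52930 (chr1:19711179-19713308) was at 1.08 and 0.913 FPKM in library 1 and 35.05, 29.5, 22.6 and 25.7 FPKM in the others, a split of -3.86 ± 0.14 (adjusted p = 0.000369). IMP4, whose yeast counterpart is part of the ribosomal RNA processome, was at 0.983 and 0.743 FPKM in library 1 and 20.9, 19.2, 14.8 and 15.5 FPKM in the others, and MEE49 was at 1.37 and 0.974 FPKM in library 1 and 23.9, 19.9, 26.1 and 27.5 FPKM in the others. Of the 5 kept genes with this annotation, 4 were called lower. The 4 were at 0.348 to 1.37 FPKM in library 1 and at 6.66 to 35.0 FPKM in the others. Both values of library 1 were below the other 4, as in 19.8% of all genes. The fifth, AT3G23620, was at 47.4 and 35.9 FPKM in library 1 and 35.04, 30.0, 33.1 and 37.7 FPKM in the others and was not called. The list of nucleolar ribosome assembly genes did not share this decrease, with 3 of 10 lower in both genotypes and 2 called. Of 20 cytosolic ribosomal protein genes 5 were called higher and 0 lower, beside 25.0% and 14.8% of all genes. The same 10 genes with the largest decrease held 2 annotated as MATE efflux family proteins, AT5G52050 and AT1G11670. AT5G52050 was at 4.67 and 5.26 FPKM in library 1 and 54.6, 48.7, 193 and 196 FPKM in the others, a split of -4.09 ± 0.39 (adjusted p = 0.00194). Over the 40 kept genes with that annotation 6 were called higher and 15 lower, beside the same 25.0% and 14.8%. CBL1, a calcium sensor, was at 16.4 and 22.6 FPKM in library 1 and 161, 150.4, 247 and 248 FPKM in the others, a split of -3.29 ± 0.10 (adjusted p = 0.000294).

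The size of the split differed between genotypes for 8282 genes (44.0%) by the product of genotype and split, of which 4488 had the same sign in both and 3755 opposite signs. For this term only libraries 2 and 4 give spread. In several lists libraries 2 and 4 of a single genotype stood apart. Most seed storage genes were present in libraries 2 and 4 of the wild type and at or near 0 in the other 4: SESA4, a storage albumin, was at 0 and 0 FPKM in library 1 and 90.13, 85.4, 0 and 0 FPKM in the others, and OLEO1, an oil-body protein, at 0 and 0.146 FPKM in library 1 and 31.7, 32.3, 0.129 and 0 FPKM in the others. SESA1 was the exception among the albumins, at 0 and 0.220 FPKM in library 1 and 5.08, 4.67, 8.96 and 7.505 FPKM in the others, with a split of -2.73 ± 0.16 (adjusted p = 0.000675). The medians of the 13 kept seed genes were -4.43 in the wild type and 0.00 in *hdt1*, and whether siliques or seeds were in the material was not tested.

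Low-oxygen genes were high in libraries 2 and 4 of *hdt1*. PDC1, a pyruvate decarboxylase of fermentation, was at 0.536 and 0.628 FPKM in library 1 and 0.472, 0.414, 30.6 and 29.1 FPKM in the others. HB1, a haemoglobin induced by low oxygen, was at 0.614 and 0.367 FPKM in library 1 and 5.33, 4.69, 67.3 and 79.6 FPKM in the others, with a split of -3.83 ± 0.84 (adjusted p = 0.0189), and an adjusted p of 0.0590 without library 2 of *hdt1* and of 0.0528 without library 4. Of 18 genes 12 were lower in library 1 of both genotypes and 6 were called, with median splits of -0.09 in the wild type and -1.81 in *hdt1*. Over all genes, 14.8% were called lower. PDC2 was the member called higher, at 199 and 199.8 FPKM in library 1 and 41.3, 42.2, 66.6 and 65.4 FPKM in the others, a split of 1.91 ± 0.16 (adjusted p = 0.00149). The small heat shock proteins HSP18.2, at 2.21 and 1.198 FPKM in library 1 and 0.954, 0.951, 47.7 and 54.97 FPKM in the others, and HSP17.4, at 1.88 and 2.11 FPKM in library 1 and 11.5, 11.3, 69.7 and 70.6 FPKM in the others, also had their highest values there. Of 17 kept heat shock genes 13 had opposite signs, with median splits of 0.72 in the wild type and -1.305 in *hdt1*. RAB18, a dehydrin induced by abscisic acid, was at 48.7 and 77.6 FPKM in library 1 and 49.9, 51.1, 1033 and 1011 FPKM in the others, whereas RD22, which responds to drought and abscisic acid, was at 644 and 661 FPKM in library 1 and 147, 148, 154 and 143 FPKM in the others, a split of 2.13 ± 0.09 (adjusted p = 0.000447) that was alike in both genotypes.

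The smallest p-values of the product term among genes with a mean of at least 10 FPKM belonged to RAP2.6, AT2G37870, AT4G33550, ORA47 and TPS8. RAP2.6, an ethylene-response-factor type transcription factor, was at 30.2 and 6.97 FPKM in library 1 and 0.887, 0.841, 89.4 and 90.9 FPKM in the others, so that its split was 4.06 in the wild type and -3.51 in *hdt1*. ORA47, a regulator of jasmonate synthesis, was at 85.9 and 215 FPKM in library 1 and 201, 196, 25.9 and 24.9 FPKM in the others, splits of -1.199 in the wild type and 3.03 in *hdt1*. The 2 genes AT2G37870 and AT4G33550, both annotated as lipid-transfer-type proteins, were over 300 FPKM in libraries 2 and 4 of *hdt1* and under 12 FPKM in the other 4 libraries. These genes were not called for a common split.

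**Figure D5:**
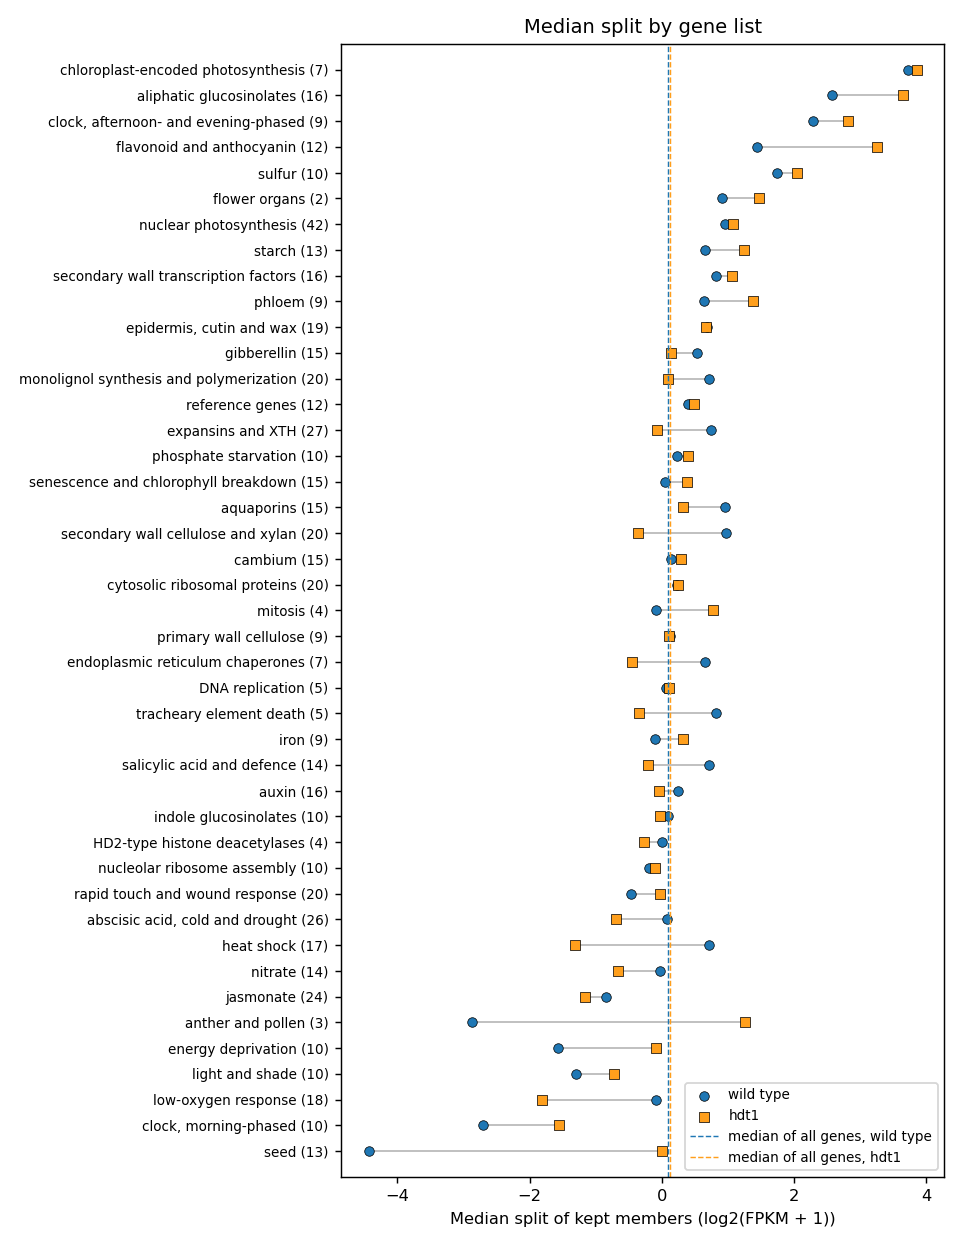
Median split (log2(FPKM + 1)) of each of the 43 gene lists over its kept members in the wild type (circles) and in *hdt1* (squares), with the number of kept members beside the name and lines at the medians over all genes (0.10 and 0.13). The chloroplast, clock, aliphatic glucosinolate, sulfur and flavonoid lists lie far from the lines in both genotypes, and the seed, low-oxygen and heat shock lists differ between them.

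Of the remaining lists, 7 of 15 gibberellin genes were called higher and 1 lower, and 5 of 16 auxin genes were called higher and 2 lower. Of 27 kept expansin and XTH genes, which loosen walls, 9 were called higher and 5 lower, and of 15 aquaporins 6 were called higher and 0 lower. Defence genes of the salicylic acid pathway had 4 of 14 called higher and 0 lower. Genes of rapid touch and wound response had 3 of 20 called higher and 8 lower, and senescence genes 4 and 1 of 15. These counts lie closer to the background of 25.0% and 14.8% than those of the clock, glucosinolate and sulfur lists.

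The split was related to gene structure in the wild type more than in *hdt1*. Among the protein-coding genes in the lowest quartile of exon length the median split was 0.38 in the wild type and 0.22 in *hdt1*, and in the highest quartile it was -0.19 and 0.05. Over 18080 genes, Pearson's r of the split with exon length on a log scale was -0.212 in the wild type and -0.0479 in *hdt1*, and that with GC content was -0.175 and -0.0483. With mean FPKM on a log scale it was -0.00552 and -0.0342. The part of length and GC content in the splits of single genes was not tested. Small nucleolar RNA genes were higher in library 1 of both genotypes for 33 of 48 kept, 16 of them called, and 3 others were called lower. The 16 calls are 33.3% of the class, near the 25.0% called higher over all genes. Of 115 kept pseudogenes 14 were called higher and 38 lower, and of 124 transcribed pseudogenes 10 and 35. The shares over all genes were 25.0% called higher and 14.8% lower. The 5 nuclear chromosomes did not stand apart from each other, with medians of 0.09 to 0.11 in the wild type and 0.12 to 0.14 in *hdt1*.

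At the limits of the rule the genes were ordinary. TBL31, just inside the FPKM limit, had a second-highest value of 1.0007 FPKM, and AT4G08990, just outside, had 0.9995 FPKM. UBP27, just inside the sign rule, was at 5.996 and 6.04 FPKM in library 1 and 6.19, 5.80, 5.80 and 5.97 FPKM in the others, and AT1G03506, just outside it, was at 10.8 and 11.4 FPKM in library 1 and 11.1, 10.5, 5.40 and 5.41 FPKM in the others.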

How the data were processed

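Expression in the stem libraries was taken from the deposited table of FPKM values, which the authors made from their reads; their paper calls the unit RPKM. Tools named in the submitters' processing notes, without their roles, are HTSeq 0.6.1, TopHat2 2.0.12 and Bowtie2 2.2.3. The genome build, like the strand setting, was not given in the sources used here. A design note in the deposited record says that there were no replicates, whereas the paper describes triplicates, and the labels and the paper give different growth conditions and RNA extraction reagents, none of them tied to a library number. TAIR10.1 was used for annotation, gene position and promoter sequence, and 32835 identifiers matched it.

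A linear model on log2(FPKM + 1) was fitted in R 4.3.3 (limma 3.58.1) to the 18843 features with 1 FPKM or more in at least 2 of the 6 libraries, with genotype and split as terms and empirical Bayes moderation with a mean-variance trend. Adjusted p is the Benjamini-Hochberg value over all 18843 genes, called when below 0.05. The product of genotype and split was tested in a separate fit, in which only libraries 2 and 4 give spread. A fold on this scale understates the change of low genes. Tables and figures were made with Python 3.11.15, NumPy 2.4.6, pandas 2.3.3 and matplotlib 3.10.9. The deposited values came out as whole reads for 25374 of the 25374 features above 0 (tolerance 1e-05, with a common factor applied to 1833), 41682210 to 46618771 reads per library. The recovered counts were tested with voom in limma as an alternative, which called 4850 genes higher and 3279 lower. On data simulated for 18843 genes, the split was recovered for 99% of changes of 2 times and 100% of changes of 4 times, with 12 false calls. The product term was recovered for 57% and 96% with 6 false calls. The simulated noise came only from the spread between libraries 2 and 4, and changed genes had a mean of at least 5 FPKM. Their split was equal in both genotypes, or in *hdt1* only for the product term. In the data the product term was called for 44.0% of genes, so the recovery and false calls of the split do not describe the fit to the data.

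The other alternatives were a pseudocount of 0.1, no filter, a mean of at least 5 FPKM, median-ratio scaling, quantile normalization, robust moderation, no genotype term, a replicate block, libraries 2 and 4 averaged, and each library left out in turn. As a pairing check, libraries of the same number deviated together from their group means (Pearson r of 0.542, 0.510 and 0.449 across genes for numbers 1, 2 and 4). So did libraries 2 and 4 across numbers (0.517 and 0.492), and the pairing comes from the column numbers alone. The value for number 1 is the correlation of the splits again. Deviations cancel within a genotype, so the split of library 1 alone gives libraries 2 and 4 positive values. This check therefore cannot show pairing.

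The members and 43 gene lists (673 genes, 582 kept) were chosen with earlier results of these data known. Named are, in each direction, the 10 called members with a mean of at least 10 FPKM and the largest smaller split, over all genes and over nuclear genes alone; the 4 most abundant genes of each list and members opposing most of it; HDT1 to HDT4; the 5 genes with the smallest p of the product term; and the 5 most abundant genes, with examples of each given here. Genes named outside that rule, chosen after their values had been seen, are AP3, AT3G23620, ATCG00060, CESA4, CESA8, CRA1, CRU3, GI, HB1, LOX4, MAH1, MYB28, MYB29, MYB34, MYB46, NCED3, NST1, PHS2, PI, PRR5, RBCS3B, RVE2, RVE8, SESA1, SND1, VSP2 and WOX4, together with the protein families of shared annotation.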

Additional observations from a re-analysis of the deposited data

Results flagged for a closer look

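The split differed between the genotypes for 8282 of 18843 genes by the product of genotype and split (limma, adjusted p under 0.05), and 70 of the genes named here are among them. The difference in split, *hdt1* minus wild type on the log2(FPKM + 1) scale, rests on 1 library against 2 in each genotype, and the cause was not tested. Of the clock genes, the difference was 0.76 for CCA1, 0.69 for LHY, 0.52 for LNK2, 2.47 for RVE2, 0.97 for RVE4, 0.71 for RVE8, 0.87 for TOC1, 1.27 for ELF3, 2.17 for ELF4, -0.95 for LUX, 2.29 for BOA, 0.89 for FKF1 and -0.53 for GI. Among genes of glucosinolates, sulfur and the glutathione S-transferases, the difference was 2.45 for BCAT4, 2.26 for MAM1, 0.96 for IMD1, 2.70 for CYP79F1, 1.08 for CYP83A1, 0.69 for MYB28, 0.93 for MYB29, -2.92 for MYB34, -1.06 for APR3, -1.25 for LSU2, 1.39 for GSTF11 and 1.28 for GSTU20. Among anthocyanin genes, the difference was 1.002 for PAP1, 2.32 for PAP2, 3.09 for DFR and 2.81 for GSTF12. For light harvesting, light signalling and carbohydrate, the difference was 0.997 for LHCB2.1, 0.60 for LHCB2.2, 0.76 for LHCB4.2, -1.16 for ATCG00470, 0.55 for ATHB2, 0.35 for PIF4, 0.72 for PIF5, 0.66 for PHS2, 1.43 for DIN10 and 4.42 for TPS8. For walls and stem tissues, the difference was -0.95 for CESA4, -2.74 for IRX15, -1.16 for NST1, -1.12 for WOX4, -0.34 for SUC2, 1.71 for SWEET12, 0.84 for CER6 and 0.93 for SHP1. For jasmonate genes, the difference was 0.30 for OPR3, 1.34 for JAZ9, -1.65 for VSP2 and 4.23 for ORA47. For seed genes, which were at or near 0 outside libraries 2 and 4 of the wild type so that the size depends on the pseudocount, the difference was 4.55 for CRA1, 4.08 for CRU3, 5.15 for OLEO1 and 6.47 for SESA4. For genes with their highest values in libraries 2 and 4 of *hdt1*, the difference was -4.34 for PDC1, -3.87 for HB1, -2.41 for HSP17.4, -5.29 for HSP18.2, -3.65 for RAB18 (AT5G66400), -7.58 for RAP2.6, -6.12 for AT2G37870 and -7.58 for AT4G33550. For the HD2 genes, the difference was -1.63 for HDT1 and -0.85 for HDT4. For the remaining genes, the difference was 0.96 for AT1G03506, -0.80 for AT1G11670, -0.51 for AT3G23620, -1.75 for AT5G52050 and -0.64 for PDC2.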

How the results depend on the processing

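Of 105 tested genes named here, 71 were called, 39 of them under every alternative, and 0 changed sign under any. For called genes the sign without a library 1 was fixed in advance, because the main fit calls only genes with the same sign in both genotypes. Of the 32 that lost their call somewhere, 20 did so only when libraries 2 and 4 were averaged. That averaging kept 4.36% of all higher calls and 3.67% of all lower calls. The naming rule drew in part on calls, so the named genes do not stand for all called genes. The counts of calls depended on how the spread was taken. Libraries 2 and 4 averaged into 1 sample gave 205 higher and 102 lower, no genotype term 2837 and 1368, and the replicate block 2798 and 1556, against 4704 and 2781. Leaving out a library moved the counts over a range of 2728 to 7059 higher and 1528 to 5093 lower: 7059 and 4859 without library 1 of the wild type, 6875 and 5093 without library 1 of *hdt1*, 2831 and 1548 or 2866 and 1661 without library 2 or 4 of the wild type, and 2728 and 1528 or 3068 and 1724 without library 2 or 4 of *hdt1*. Without a library 1 only the other genotype measures the split. With the replicate block added after the data had been seen, which leaves 1 residual degree of freedom, the product term was called for 7437 genes against 8282. Pseudocount, filters, scaling, robust moderation and limma voom on recovered reads (4850 higher, 3279 lower) left both counts within 1.5 times. The counts of genes with the same sign, and the 5837 to 8363 genes called for the product term, stayed within 1.5 times under every alternative that gave them. The share of higher calls went from 62.8% to 49.9% with median-ratio scaling, which moved the median split from 0.11 to -0.01. Calls that were lost without single libraries were CESA4 (adjusted p up to 0.101), DFR (adjusted p up to 0.0527), HB1 (adjusted p up to 0.059), JAZ9 (adjusted p up to 0.119), SND1 (adjusted p up to 0.0528) and TOC1 (adjusted p up to 0.0874). CESA4, JAZ9 and TOC1 lost theirs without any 1 of libraries 2 and 4, DFR and HB1 without library 2 or 4 of *hdt1*, and SND1 without library 2 of *hdt1*. The replicate block ended the calls of CESA4 (adjusted p = 0.0854), JAZ9 (0.0982) and TOC1 (0.0741) and no other call of a named gene, and JAZ9 also lost its call with median-ratio scaling (0.0637), quantile normalization (0.0702) and no filter (0.0809), CESA4 with the first (0.0736) and last (0.0652) of these. Without a genotype term 11 named genes lost their call, and with libraries 2 and 4 averaged 32 did. Folds of genes near 0 FPKM in a group depend on the pseudocount.

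Some genes and lists without a called split changed sign somewhere, their split over both genotypes standing in brackets. The median of heat shock (-0.40) was -1.30 to 0.72 without single libraries. The median of indole glucosinolates (0.0076) was -0.030 to 0.097 without single libraries, -0.13 under median-ratio scaling and -0.044 after quantile normalization. The median of secondary wall cellulose and xylan (0.33) was -0.35 to 0.98 without single libraries and -0.035 by voom. AT1G03506 (0.48) was -2.9e-05 to 0.96 without single libraries. AT2G37870 (-2.10) was -5.16 to 0.96 without single libraries. AT4G33550 (-2.08) was -5.87 to 1.71 without single libraries. BOA (0.44) was -0.70 to 1.59 without single libraries. ELF3 (0.35) was -0.28 to 0.99 without single libraries. HDT2 (0.093) was -0.041 under median-ratio scaling. HDT4 (0.27) was -0.15 to 0.70 without single libraries. HSP18.2 (-1.92) was -4.57 to 0.72 without single libraries. IRX15 (0.25) was -1.11 to 1.62 without single libraries and -0.16 by voom. LHCB1.3 (0.069) was -0.096 to 0.23 without single libraries, -0.065 under median-ratio scaling and -0.52 after quantile normalization. LHCB2.1 (-0.45) was -0.94 to 0.052 without single libraries. LHCB2.2 (-0.19) was -0.49 to 0.11 without single libraries. LHCB4.2 (0.15) was -0.23 to 0.53 without single libraries. MYB46 (0.047) was -0.051 under median-ratio scaling and -0.072 after quantile normalization. OLEO1 (-2.47) was -5.04 to 0.11 without single libraries. ORA47 (0.92) was -1.20 to 3.03 without single libraries. PDC1 (-2.08) was -4.24 to 0.091 without single libraries. RAP2.6 (0.27) was -3.51 to 4.06 without single libraries and -2.13 by voom. SUC2 (0.098) was -0.072 to 0.27 without single libraries and -0.036 under median-ratio scaling. TPS8 (-1.13) was -3.34 to 1.08 without single libraries. UBP27 (0.017) was -0.098 under median-ratio scaling and -0.12 after quantile normalization. The cause was not tested.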

Other observations

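Some genes outside the groups above also had library 1 apart from the rest. MAH1, a hydroxylase that makes the ketones of stem wax, was at 8.30 and 6.56 FPKM in library 1 and 0.0684, 0.0146, 0.0697 and 0.126 FPKM in the others, a split of 2.97 ± 0.17 (adjusted p = 0.000663). SHP1, a MADS-box gene of fruit and valve margin, was at 20.8 and 20.4 FPKM in library 1 and 9.04, 10.7, 4.66 and 4.47 FPKM in the others, a split of 1.47 ± 0.23 (adjusted p = 0.007). LAP6, a polyketide synthase of pollen walls, was at 5.68 and 3.52 FPKM in library 1 and 21.0, 22.1, 15.5 and 12.6 FPKM in the others, a split of -1.74 ± 0.12 (adjusted p = 0.000957), so that of the few kept anther genes it was the only one called. NCED3, the enzyme that limits abscisic acid synthesis, was at 1.40 and 2.18 FPKM in library 1 and 10.3, 9.51, 12.8 and 11.8 FPKM in the others, a split of -2.12 ± 0.11 (adjusted p = 0.000621). Of the kept abscisic acid response genes, 6 of 26 were called higher and 7 lower, beside 25.0% and 14.8% of all genes. The 4 annotated ribosomal RNA features all had opposite signs, with medians of -3.44 in the wild type and 0.91 in *hdt1*. MAH1, NCED3 and the ribosomal RNA features were chosen after their values had been seen.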
